A study of Mus musculus with 4 samples.

Results

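The Sfrp5-led chondrocytes described here were 63 cells out of 893 gated spine chondrocytes and 1757 cells of all types that passed the quality filters. They were chosen by their own counts. Each had at least 1 UMI (a count of 1 captured mRNA molecule) of Sox9 and 3 of Acan, fewer than 3 UMIs of the endplate genes Zfp804b and Dab1 and fewer than 3 of the hypertrophic genes Ihh, Panx3, Prkg2 and Col10a1. Each also held at least 2 UMIs of Sfrp5 and Adamtsl2 together, more than its sum for Prg4, Smoc2 and Cilp2 and more than its sum for Chrdl2, Meox2 and Htr1f. Cells that met all these limits are called members, and the 830 remaining gated cells are called the other gated chondrocytes.

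The cells came from T11 to L2 vertebrae of mice in which Cre expressed from the Prss56 locus switches on the tdTomato reporter, so that boundary cap-derived cells and their progeny are red. Control cells were Prss56Cre/+; R26tdTom/tdTom; Nf1+/+ and mutant cells were Prss56Cre/Cre; R26tdTom/tdTom; Nf1fl/fl, so the number of Cre alleles and the loss of Nf1, a brake on RAS signalling, cannot be told apart. The tissue was digested with collagenase and dispase, and tdTom+ cells negative for CD11b, CD31 and CD45 were sorted and run as 1 droplet library (10x, 3′ end counting) for each genotype at 3 months and at 12 to 16 months. The number of animals in a library was not stated in the sources used here.

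With 1 library for each condition there is no replicate error for any condition, and no test was made. Intervals given here are 95% counting intervals, exact binomial or Poisson, which cover the sampling of molecules or cells and not the spread between cells or animals. The libraries are named control or mutant with the age. Levels are in CPM, the UMIs of a gene scaled to the total UMIs of the same set of cells in a library. Because the members were picked by their counts, every comparison of members with other cells is a description of what the rule picked out.

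Intervertebral discs join neighbouring vertebrae. Their outer annulus is fibrous and rich in fibrillar collagen, their core holds aggrecan-rich cells in a hydrated matrix, and cartilage endplates border the bone. Sfrp5 encodes a secreted Frizzled-related protein that can bind WNT ligands and keep them from their receptors, and Adamtsl2 encodes a secreted glycoprotein without protease activity that associates with microfibrils. Prg4 encodes lubricin, a surface lubricant of joints, which many fibrocartilage cells make in large amounts.

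The promoters of 4 genes are shown because they carry the description that follows: Sfrp5 and Adamtsl2 led the choice of cells, and Hhip and Ptch1, both known transcriptional targets of Hedgehog signalling, had higher levels in members. Each sequence runs 5′ to 3′ on the gene's strand from 250 bases before to 50 bases after the RefSeq start (GRCm38.p6). Sfrp5 lies on the minus strand at chr19:42202203-42202502, Adamtsl2 on the plus strand at chr2:27079129-27079428, Hhip on the minus strand at chr8:80057959-80058258 and Ptch1 on the minus strand at chr13:63565686-63565985. Capitals mark TGACGTCA, the palindromic cyclic AMP response element.
Sfrp5: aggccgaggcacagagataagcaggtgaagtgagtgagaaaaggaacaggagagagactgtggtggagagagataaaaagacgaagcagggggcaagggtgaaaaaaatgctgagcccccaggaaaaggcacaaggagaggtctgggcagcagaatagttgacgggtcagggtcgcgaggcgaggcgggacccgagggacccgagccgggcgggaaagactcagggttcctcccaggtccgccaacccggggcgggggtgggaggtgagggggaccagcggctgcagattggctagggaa
Adamtsl2: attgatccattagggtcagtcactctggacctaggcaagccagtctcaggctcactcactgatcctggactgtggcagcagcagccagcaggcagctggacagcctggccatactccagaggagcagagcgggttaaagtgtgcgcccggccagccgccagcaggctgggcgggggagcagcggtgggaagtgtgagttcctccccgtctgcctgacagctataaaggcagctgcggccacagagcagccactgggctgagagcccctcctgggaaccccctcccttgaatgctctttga
Hhip: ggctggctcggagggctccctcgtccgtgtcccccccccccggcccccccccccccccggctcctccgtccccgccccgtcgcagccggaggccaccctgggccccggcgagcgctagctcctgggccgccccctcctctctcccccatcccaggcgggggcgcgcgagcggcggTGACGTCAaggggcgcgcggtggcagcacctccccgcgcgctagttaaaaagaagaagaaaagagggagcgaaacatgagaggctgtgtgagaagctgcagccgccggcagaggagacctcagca
Ptch1: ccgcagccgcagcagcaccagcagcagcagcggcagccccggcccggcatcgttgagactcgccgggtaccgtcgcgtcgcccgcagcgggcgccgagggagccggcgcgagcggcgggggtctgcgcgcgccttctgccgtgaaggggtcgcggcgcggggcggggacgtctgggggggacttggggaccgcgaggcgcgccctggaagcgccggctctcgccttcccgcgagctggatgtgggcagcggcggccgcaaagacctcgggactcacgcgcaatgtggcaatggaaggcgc

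Of these 4 windows, the Hhip promoter alone held one of the motifs searched on both strands. TGACGTCA was present in 1.79% of 32851 RefSeq promoters of the same length. The AP-1 motif TGACTCA, present in 5.2% of promoters, the STAT motif TTCNNNGAA, present in 8.3%, and the GLI motif TGGGTGGTC, present in 0.253%, had no match in the 4 windows, and none of the motifs contains another. Among 43 genes of interest with a promoter in the table, out of 63 looked up, TGACTCA was found in 4 (Car9, Serpina1a, Serpina1d and Dmkn), TGACGTCA in 2 (Hhip and Btg2), TTCNNNGAA in 4 (Socs3, Dpt, Mir99ahg and Bcl6) and TGGGTGGTC in 0. The GC content was 61.3% for Sfrp5, 62.3% for Adamtsl2, 73.7% for Hhip and 76.3% for Ptch1, against a median of 52.7% over all promoters.

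Members were a minority of the gated cells in each library. They numbered 44 of 456 in the 3-month control (9.65%, interval 7.10 to 12.7), 10 of 198 in the 3-month mutant (5.05%, 2.45 to 9.09), 4 of 68 in the 12-16-month control (5.88%, 1.63 to 14.4) and 5 of 171 in the 12-16-month mutant (2.92%, 0.956 to 6.69). The share was lower in the mutant library at each age, but the intervals overlapped at both ages and the values came from single libraries. When every cell was thinned to 3000 UMIs and the rule was applied again, the shares were 7.89%, 6.70%, 6.45% and 2.38% in the same order. No cell barcode was shared between any pair of libraries.

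Depth differed between the libraries and between the sets of cells. The median member held 7766.5 UMIs in the 3-month control, 8713.5 in the 3-month mutant, 10482 in the 12-16-month control and 4938 in the 12-16-month mutant, and the other gated chondrocytes held 12608.5, 10470, 9287 and 7092. The members' totals were 409341, 99213, 45038 and 25797 UMIs, so statements about the older libraries rest on little sequence. The median mitochondrial share of member UMIs was 1.25%, 1.12%, 1.27% and 1.88%. Cells with Xist and no Y-linked UMI made up 51 of the 63 members and cells with Y-linked UMIs and no Xist made up 5, and among gated cells of the 3-month mutant these numbers were 196 and 0, so the sex of the cells differed between libraries and its part in the results was not tested. Scrublet, which scores doublets, marked 0 members and 2, 4, 9 and 4 of all passing cells by library.

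The genes that chose the cells had the following counts. Members held 2 to 36 UMIs of Sfrp5 and Adamtsl2 together (median 10), a median of 2 UMIs of Prg4, Smoc2 and Cilp2 (highest 17) and a median of 1 UMI of Chrdl2, Meox2 and Htr1f (highest 11). Sfrp5 carried the choice: 28 members had UMIs of both genes, 35 had Sfrp5 alone and 0 had Adamtsl2 alone. Prg4 was at 0 UMIs in 43 of the 63 members. Near the limit, 6 members were inside by a margin of 1 UMI, and 12 cells were outside with a sum equal to or 1 below that of the competing genes. A further set matters for the comparison: 217 gated cells held at least 2 UMIs of Sfrp5 and Adamtsl2 but were kept out, 109, 49, 20 and 39 by library, and in 95, 40, 12 and 35 of them Prg4 alone was as large as the sum.

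**Figure D1:**
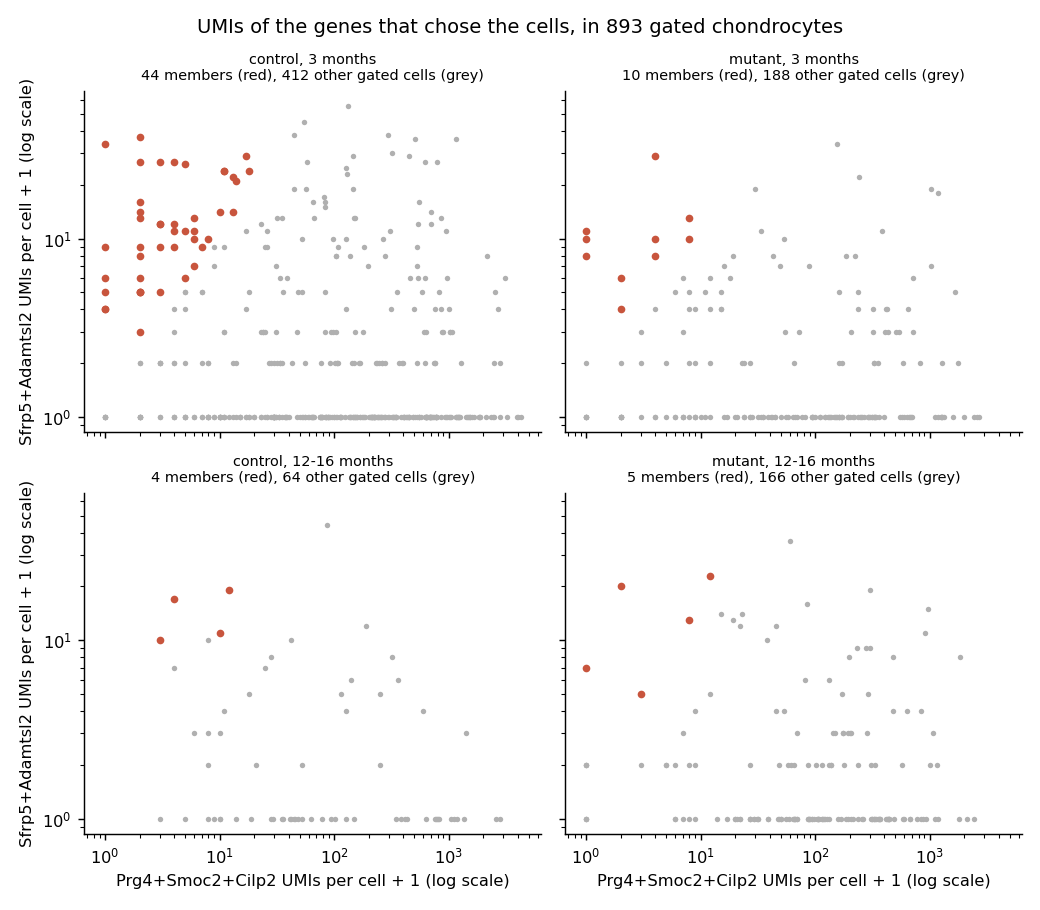
UMIs per cell of Sfrp5 plus Adamtsl2 (vertical, plus 1, log scale) against Prg4 plus Smoc2 plus Cilp2 (horizontal, plus 1, log scale) in the 893 gated chondrocytes, 1 panel per library, with members in red and other gated cells in grey. Members lie at the left by construction, and many grey cells reach the same vertical range at Prg4-led counts of 100 and more.

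Of the 4 genes that name these cells, Sfrp5 and Adamtsl2 were higher in members by choice, and Atf3 and Socs3 did not set them apart. Sfrp5 was at 1195 CPM in members of the 3-month control, 947.5 in the 3-month mutant, 821.5 in the 12-16-month control and 1977 in the 12-16-month mutant, against 143, 122.7, 150.4 and 174.1 in the other gated chondrocytes. Adamtsl2 was at 185.7, 50.4, 355.3 and 465.2 CPM, against 40.84, 19.69, 32.42 and 48.23. The low Adamtsl2 value of the 3-month mutant was 5 UMIs, all in 1 cell.

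Atf3, a stress-induced transcription factor, was at 1483, 504, 1687 and 814 CPM in members of the libraries in the same order, against 1782, 1110, 1091 and 875.7 in the other gated chondrocytes. Over all libraries the ratio of members to others was 0.885 (0.821 to 0.952). Socs3, an inhibitor of cytokine signalling through STAT3, was at 1258, 725.7, 999.2 and 1434 CPM against 1212, 824.5, 976.6 and 754.4, a ratio of 1.10 (1.01 to 1.19). Members lay below the others for Atf3 in 3 of the 4 libraries and above them for Socs3 in 3 of the 4, and both genes varied widely within a library: Atf3 had a median of 1022 CPM over the members of the 3-month control, with 9 of 44 cells at 0 and a highest cell at 13572.

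Members held chondrocyte genes, and most markers of the disc core were not detected in them. Sox9, the master transcription factor of cartilage, was at 1085, 967.6, 1621 and 736.5 CPM in members and Acan, which encodes aggrecan, at 3420, 4425, 1732 and 3760. Both were required by the rule. Of 14 disc and notochord markers, 10 were at 0 UMIs among all members (T, Noto, Krt8, Krt18, Krt19, Shh, Car3, Car12, Cdh2 and Nrn1). Cd24a, a surface glycoprotein used as a disc marker, had the most UMIs of the list, at 708.5, 473.7, 377.5 and 426.4 CPM, and over all libraries it was at 630 CPM in members against 484 in the other gated chondrocytes. Pax1, a transcription factor of the sclerotome and annulus, was at 378 CPM against 233.5. Of the disc genes examined, Cd24a, Foxf1 and Pax1 had more than 1 UMI among members, and the notochordal keratins were at 0.

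Markers of other cell types were scarce in members. Of 12 immune markers 10 were at 0, with Ptprc and Itgam at 0 and a sum of 6.904 CPM that was mostly Plac8. Of 6 endothelial markers 5 were at 0, with Cdh5 at 0 and Pecam1 at 5.178 CPM, of 6 mural markers 5 were at 0, with Rgs5 and Acta2 at 0 and Myh11 at 1.726 CPM, and of 5 marrow stromal markers 4 were at 0, with Cxcl12 at 0 and Lepr at 1.726 CPM. Of 6 red blood cell markers 5 were at 0, and of 6 skeletal muscle markers 4, with sums of 1.726 and 3.452 CPM.

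Markers of bone and nerve were present at low levels. The sum over 7 osteoblast and osteocyte markers was 85.5 CPM in the 3-month control and 10.08, 22.2 and 38.76 CPM in the other libraries, with Bglap and Dmp1 at 0 and with Ibsp, which encodes bone sialoprotein, at 75.73 CPM in the 3-month control. Over all libraries this sum was 65.59 CPM in members and 233.0 in the other gated chondrocytes. Of 6 Schwann cell markers, Sox10 and Cdh19 were at 0 and Pmp22, which chondrocytes also express, made up 183.0 of the sum of 191.6 CPM. The corresponding sum in the other gated chondrocytes was 229.7 CPM.

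Nf1, which encodes neurofibromin, was at 156.3 CPM in members of the 3-month control, 231.8 in the 3-month mutant, 199.8 in the 12-16-month control and 155.1 in the 12-16-month mutant, from 64, 23, 9 and 4 UMIs. The level was not lower in the mutant library at 3 months. Counts from the 3′ end do not read the deleted part of the allele, so they do not check the genotype.

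A gene was counted as higher or lower in members when its CPM differed at least 2-fold from the other gated chondrocytes in each of the 4 libraries, with 0.5 added to each count, among 8869 genes with at least 100 UMIs in all. In this comparison 53 genes were higher, which was 0.598% of those tested, and 30 were lower, 0.338%. Both counts include rule genes, Sfrp5 and Adamtsl2 among the higher and Prg4 and Cilp2 among the lower. The added count raises low genes more in the smaller set of members. Added in proportion to the totals it left 29 genes higher (0.327%) and 118 lower (1.33%), and all 29 were among the 53. Among the 4363 genes with at least 1 UMI in the members of every library, 41 were higher (0.94%) and 8 lower (0.183%). The median log2 ratio over all genes tested was 0.28, and it was -0.20 with TMM scaling and 0.05 with median-of-ratios scaling, so a ratio near 1 has no fixed direction. With TMM scaling 19 genes were higher and 76 lower, and with median-of-ratios scaling 33 were higher.

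Genes of the Hedgehog pathway, in which the receptor Ptch1 holds back Smo until a Hedgehog ligand binds and GLI factors then act on target genes, were a set chosen after their values were seen. Of 19 measured, 13 passed the minimum. In all 4 libraries 2 (Hhip and Gli1) were at least 2-fold higher and 0 lower, beside 0.598% and 0.338% of all genes. The median log2 ratio was 0.41 beside 0.28 over all genes. Hhip kept its call with the proportional added count, with TMM scaling and with every cell weighted equally, and Gli1 lost it under each of the 3. The levels that stood out were those of the feedback genes. Hhip (chr8:79965851-80058006), which binds and sequesters Hedgehog ligands, was at 224.8, 493.9, 44.41 and 426.4 CPM in members against 44.67, 79.2, 7.781 and 81.39 in the other gated chondrocytes. Members were higher in each library, with a ratio of 4.92 (4.09 to 5.90) over all, from 35 member cells, and the 12-16-month control was low in both sets with 2 member UMIs, both in 1 cell. Without the richest cell of each library Hhip was at 182, 326, 0 and 155 CPM.

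Ptch1 was at 232.1, 312.5, 133.2 and 387.6 CPM in members against 67.34, 109.9, 81.71 and 107.8, a ratio of 2.96 (2.46 to 3.55). The ratio was below 2 in the 12-16-month control, where the log2 ratio was 0.81. Gli1, a transcriptional activator that is itself a target of the pathway, was at 51.3, 60.48, 44.41 and 116.3 CPM against 16.17, 22.89, 23.34 and 15.83, a ratio of 3.05 (2.03 to 4.46). Members lay above the others for both genes in all 4 libraries, but for Ptch1 this rested on 1 cell in 2 of them. Of its 31 UMIs in the 3-month mutant, 23 lay in 1 cell, and without the member richest in Ptch1 its level was 96.5 CPM in the 3-month mutant and 60.1 in the 12-16-month control, below the other gated chondrocytes in both. Gli1 stayed above the others in all 4 libraries without its richest cells, at 44.9, 60.4, 30.0 and 51.7 CPM. Its member UMIs numbered 21, 6, 2 and 3 by library, so the older libraries say little about it. The ligands Shh, Dhh and Ihh had 0 UMIs among members, which allows up to 5.178 CPM. Ihh was among the genes whose sum the rule held below 3 UMIs. Smo was at 226.1 CPM against 199.4 and Gli2 at 113.9 against 112.2, whereas the co-receptor Gas1 was lower, at 1483 against 2687.

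The cells that the rule kept out for their Prg4-led counts lay between the members and the rest. Hhip was at 265.8 CPM in members, 151.6 in the kept-out cells and 17.62 in gated cells with under 2 UMIs of Sfrp5 and Adamtsl2. The corresponding levels were 245.1, 120.5 and 68.61 for Ptch1 and 55.23, 35.49 and 11.61 for Gli1. In endplate chondrocytes pooled over the libraries, where the Hedgehog targets were also present, Hhip was at 354.1 CPM and Ptch1 at 1080, both above the pooled members. The pools differ in make-up. The 3-month mutant supplied 727491 of 1075993 endplate UMIs, and the 3-month control 409341 of the members' 579389. Members of the 3-month mutant alone had Hhip at 493.9 CPM, above the pooled endplate level. High Hhip and Ptch1 were thus not particular to members among the chondrocytes of these vertebrae.

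**Figure D2:**
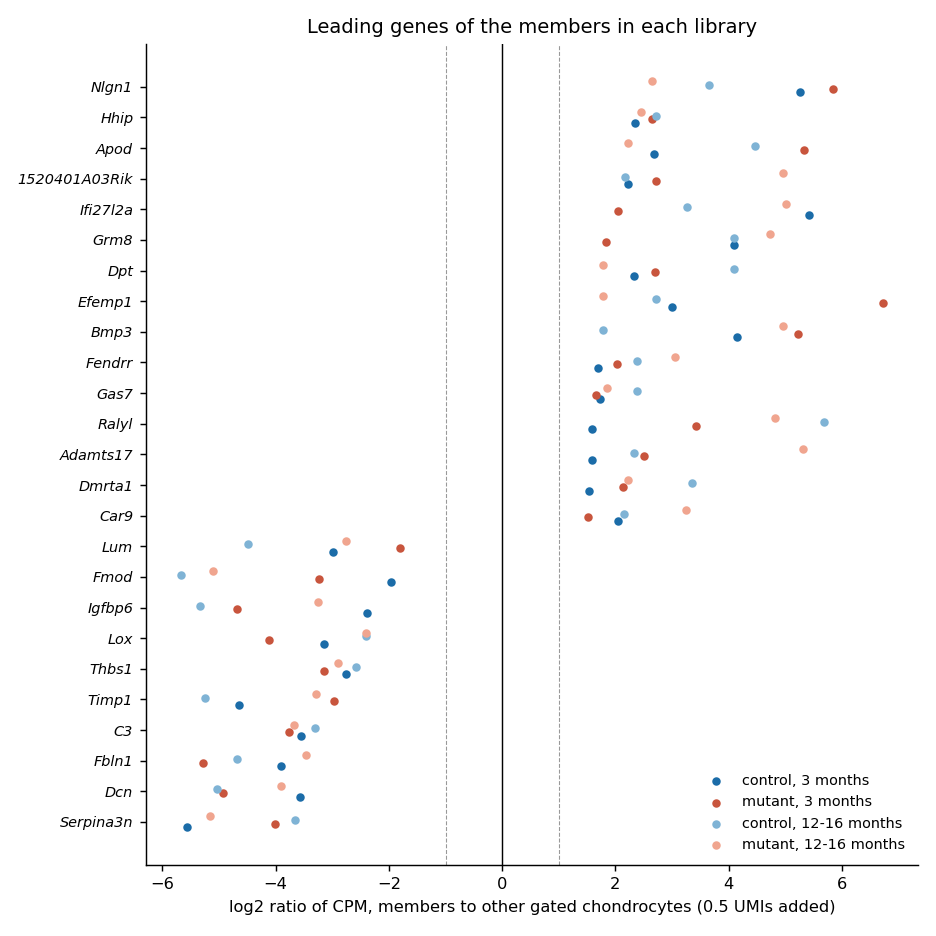
The log2 ratio of CPM in members to CPM in the other gated chondrocytes, with 0.5 added to each count, for the 15 leading higher and 10 leading lower genes, with 1 point per library and dashed lines at 2-fold. For Hhip the 4 libraries lie together, between 2.34 and 2.72, whereas for Nlgn1 they spread from 2.65 to 5.85. The Hhip point of the 12-16-month control rests on 2 member UMIs, both in 1 cell.

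Genes of the WNT pathway included 8 of 19 tested that were higher in members in all 4 libraries and 1 that was lower. Of all 8869 genes, 1721 were higher and 340 lower. At the 2-fold limit 1 of the 19 was called higher, beside 0.598% of all genes, and 0 lower, beside 0.338%. The gene called was Ror1, a WNT5A receptor of the receptor tyrosine kinase family. Ror1 had 0 member UMIs in the 12-16-month control, and its call there came from the added count. It was not called with the proportional count or with TMM scaling. The median log2 ratio of the list was 0.48 beside 0.28 over all genes. With TMM scaling the medians of the Hedgehog, WNT and BMP lists were -0.17, 0.14 and -0.05 beside -0.20 over all genes. Wif1, which encodes a secreted WNT inhibitor, was at 969.9, 745.9, 932.5 and 2558 CPM in members against 458.4, 444.5, 494.1 and 720.5. The ratio was 2.03 (1.86 to 2.21). Without the richest cell of each library Wif1 was at 871.7, 629.4, 510.5 and 1604 CPM. In the 12-16-month control 25 of its 42 UMIs lay in 1 cell, and without that cell it was close to the others. Notum, a secreted enzyme that inactivates WNT ligands, was at 129.5, 60.48, 0 and 38.76 CPM against 12.0, 15.11, 22.05 and 10.55, higher in 3 libraries and at 0 UMIs in the 12-16-month control. Ror1 was at 39.7 CPM in members against 10.6 (ratio 3.74, 2.28 to 5.91), and the other receptors higher in all 4 libraries, Fzd7, Fzd8, Lrp6 and Ror2, had ratios of 1.45 to 2.40.

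Genes of the BMP pathway, in which secreted ligands signal through SMAD proteins and secreted antagonists limit them, had a median log2 ratio of 0.49 beside 0.28 over all genes, with 3 of 23 tested called higher (Bmp3, Nog and Acvr2b), beside 0.598% of all genes, and 0 lower. Bmp3 lost its call with the proportional added count, Nog with TMM scaling, and Bmp3 and Acvr2b with every cell weighted equally. Nog (chr11:89300638-89302332), which encodes the antagonist noggin, was at 146.6, 60.48, 177.6 and 348.9 CPM in members against 30.34, 24.72, 73.92 and 27.13. The ratio was 4.48 (3.48 to 5.71). In the 12-16-month mutant 6 of the 9 Nog UMIs lay in 1 cell, and without that cell its level was 158.4 CPM. Bmp3, a ligand known to oppose other BMPs, was at 101.8 CPM against 4.571 (ratio 22.3, 14.9 to 33.4) and was detected in 24 members. Its UMIs numbered 39, 19, 0 and 1 by library, so the older libraries say little about it. Id3, a target of BMP signalling that inhibits basic helix-loop-helix factors, was at 1175 CPM against 598.8.

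Other regulators in the set of higher genes included neighbours on chromosome 8. Foxf1 (chr8:121084386-121088144, plus strand), a forkhead factor of mesoderm that is also used as a marker of the disc core, was at 166.1, 141.1, 199.8 and 155.1 CPM in members against 63.18, 48.99, 85.6 and 52.0, a ratio of 2.72 (2.16 to 3.37). It was detected in 73.0% of members. Fendrr, a long non-coding RNA transcribed the opposite way from beside Foxf1, was at 48.33 CPM against 13.62 (ratio 3.55). Sox4, a SOXC transcription factor, was at 107.5, 241.9, 421.9 and 310.1 CPM in members and was, with Gtdc1 and Grm8, one of the 3 called genes that were also at least 2-fold above the kept-out cells in all 4 libraries. In the 12-16-month mutant 7 of the 8 Sox4 UMIs lay in 1 cell, and its level without that cell was 47.9 CPM beside 33.2 in the other gated chondrocytes. Foxf1 and Sox4 were not called with TMM scaling, and Foxf1 was not called with every cell weighted equally.

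Alpl (chr4:137741733-137796384), which encodes tissue-nonspecific alkaline phosphatase, an enzyme of mineralization, was at 244.3, 181.4, 88.81 and 310.1 CPM in members against 15.67, 66.38, 38.91 and 24.87, a ratio of 7.64 (6.17 to 9.41). It was higher in each library and was not called with TMM scaling or against the kept-out cells. After thinning, Alpl was detected in 20.97% of members and 11.11% of kept-out cells over all libraries. In the 3-month mutant the order was reversed, at 10% of 10 members and 22.45% of 49 kept-out cells. In the 3-month mutant 13 of its 18 UMIs lay in 1 cell, and without that cell its level was 55.2 CPM, below the others. The other gene of the ossification list that went one way in all 4 libraries was Ibsp, which was lower, at 53.5 CPM against 206.3. The list's median log2 ratio was -0.27 over 10 genes tested, beside 0.28 over all genes, with 1 called higher and 0 lower, beside 0.598% and 0.338%. Alpl was higher still, at 712.5 CPM, in hypertrophic chondrocytes.

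Some matrix genes of the fibrous part of the disc were lower in members. Of the 12 tested fibroblast and outer annulus genes, 4 were called lower (Dcn, Igfbp6, Lum and Fn1), 1 was called higher (Dpt), beside 0.338% lower and 0.598% higher of all genes, and the median log2 ratio was -0.96 beside 0.28. Dcn (chr10:97479609-97518143), which encodes decorin, a small proteoglycan that binds collagen fibrils, was at 561.9, 181.4, 488.5 and 1202 CPM in members against 6666, 5666, 16479 and 18259 in the other gated chondrocytes. All 4 member values lay far below all 4 others, with a ratio of 0.0598 (0.0532 to 0.0670). Lum (lumican) was at 1.726 CPM against 56.02, and Fn1 (fibronectin) at 1265 against 4630. Dpt, which encodes dermatopontin, was the exception, at 162.2 against 28.01 (ratio 5.79, 4.54 to 7.33) in 19 cells, and it was not called with TMM scaling. The rule kept Prg4-rich cells out, and these levels are not independent of it. Against the kept-out cells Dcn was still called lower, whereas Igfbp6, Lum, Fn1 and Dpt lost their calls.

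Other genes among the 10 that led the lower side had few UMIs in members. Serpina3n, a serine protease inhibitor, was at 5.178 CPM against 213.3, Timp1, an inhibitor of metalloproteinases, at 5.178 against 189.7, and C3, the central complement component, at 3.452 against 96.1. Fbln1 (fibulin 1) was at 5.178 against 164.8 and Lox, which cross-links collagen, had 0 UMIs in members, which allows up to 5.178 CPM, against 42.31. Thbs1 and Igfbp6 had ratios of 0.113 and 0.0776. The more abundant metallothionein Mt1 was at 253.7 against 1171 and Ecrg4, a secreted peptide precursor, at 868 against 5764. With 0.5 added in proportion to the totals, every gene of the 30 was still called lower, and with every cell weighted equally 23 were, Fn1 and Ecrg4 not among them.

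Among the 22 cartilage matrix genes tested, 7 were lower in members in all 4 libraries and 0 were higher, beside 340 and 1721 of all 8869 genes. Of the 22, 2 (Fmod and Comp) were at least 2-fold lower in each, beside 0.338% of all genes. Against the kept-out cells neither was called. None was at least 2-fold higher, beside 0.598%. The median log2 ratio was -0.42 beside 0.28 over all genes. Comp, which encodes cartilage oligomeric matrix protein, was at 3274, 1875, 510.7 and 697.8 CPM in members against 7469, 5978, 4140 and 6085. Col2a1, the collagen II gene, was at 652.3, 1300, 599.5 and 310.1 against 3107, 1723, 3074 and 1675, a ratio of 0.283 (0.257 to 0.312). Chad and Cilp had ratios of 0.451 and 0.491 and Prelp and Ucma of 0.688 and 0.711. The members thus held UMIs of cartilage matrix genes throughout, at a lower level for these 7.

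Calls in the remaining lists, beside 0.598% higher and 0.338% lower and a median of 0.28 over all genes, were as follows. Microfibril and ADAMTS-like genes had 2 of 16 called higher (Efemp1 and Adamts17) and 1 lower (Fbln1), at a median log2 ratio of 0.19. Glycolysis and hypoxia genes had 1 of 23 called higher, the hypoxia-induced carbonic anhydrase Car9 (63.86 CPM against 17.6, ratio 3.63, 2.48 to 5.19), at a median of 0.39. Lipid handling genes had 1 of 11 called higher, Apod, at a median of 0.91. Apod and Efemp1 had 0 member UMIs in the 12-16-month mutant, where the call came from the added count, and neither was called with the proportional count. Apoe, a lipid carrier, was at 6327, 4415, 9037 and 3644 CPM against 4071, 3229, 1884 and 1603, higher in each library. Immediate early and stress genes had 0 of 30 called in either direction and a median of 0.16. Genes of gp130 and STAT3 signalling had 0 of 18 and a median of 0.29, close to that of all genes. Chondrocyte transcription factors (10 tested), TGF-beta (18), RAS brake (12) and cell cycle (7) genes had 0 called, cytokine and NF-kB response genes had 3 of 18 lower (C3, Mt1 and Mt2), matrix proteases and inhibitors 2 of 12 lower, and glucocorticoid targets 1 of 10 lower, Mt2.

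Several of the 15 leading higher genes came from few cells. Nlgn1, a synaptic adhesion molecule, had 105.3 CPM in members against 4.571, but 62.3% of its UMIs lay in 1 cell, and 48 of them in the 3-month mutant. The same held for Apod and Efemp1, an extracellular matrix fibulin, with 53.1% each in 1 cell, and for Grm8, a glutamate receptor, with 44.8%. Ifi27l2a, an interferon-induced gene, had 381.4 CPM against 13.62 with 72.9% in 1 cell. In contrast the largest cell held 12.3% of the Hhip UMIs. Serpina1b, which encodes an alpha-1-antitrypsin of a set of near-identical copies whose reads cannot be assigned with certainty, was at 7368, 13587, 11612 and 7404 CPM against 2335, 4332, 3499 and 3413. It was higher in members in each library, with a ratio of 2.94, and was not called with TMM scaling or against the kept-out cells.

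**Figure D3:**
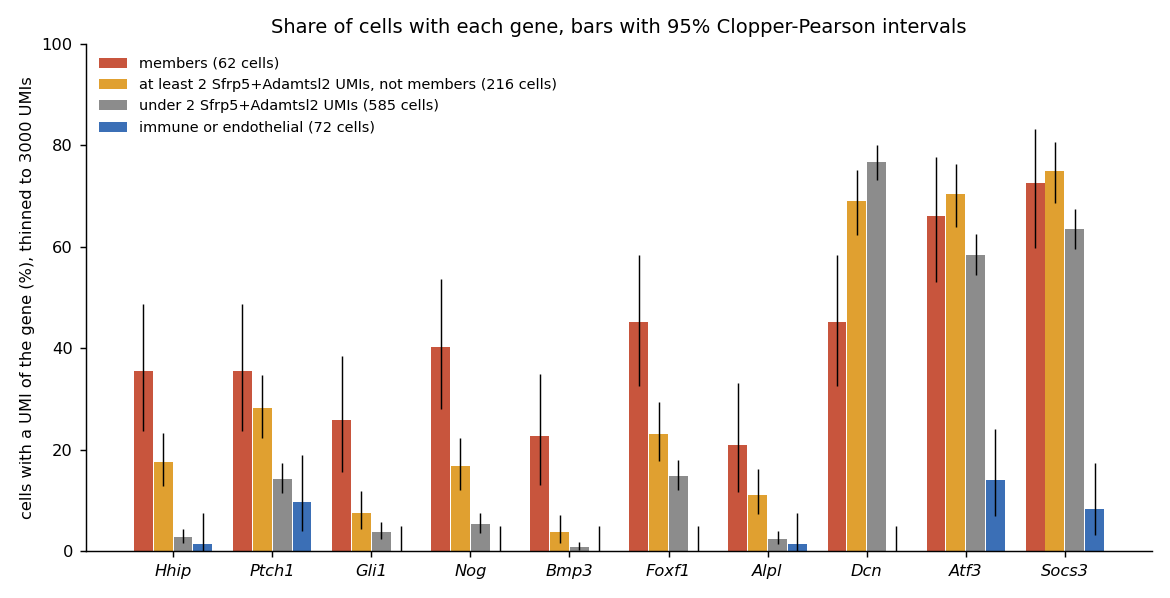
Percent of cells with at least 1 UMI of each gene after thinning every cell to 3000 UMIs, with 95% exact binomial intervals, in members (62 cells), kept-out cells with at least 2 UMIs of Sfrp5 and Adamtsl2 (216), gated cells below that (585) and immune or endothelial cells (72). Hhip was detected in 35.5%, 17.6%, 2.74% and 1.39% of these cells, and Atf3 in 66.1%, 70.4%, 58.5% and 13.9%.

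Shares of cells at equal depth, pooled over the libraries, gave the same order as the levels. The 3-month control supplied 43 of the 62 members deep enough. After thinning, Hhip was detected in 35.5% of members (23.7 to 48.7), 17.6% of kept-out cells, 2.74% of gated cells below 2 UMIs and 1.39% of immune or endothelial cells, which was 1 cell. The unthinned share in members was 55.6%. Nog was detected in 40.3%, 16.7%, 5.30% and 0%, and Foxf1 in 45.2%, 23.2%, 14.9% and 0%, where the exact interval of 0 of 72 cells reaches 4.99%. Bmp3 was detected in 22.6%, 3.70%, 0.684% and 0% and Gli1 in 25.8%, 7.41%, 3.76% and 0%. Pooled over the libraries, the members' share was above the immune and endothelial level and above that of the kept-out cells for each of these genes. Within the 12-16-month control this did not hold for Bmp3, at 0% of 4 members against 5% of 20 kept-out cells. For Ptch1 the pooled shares were 35.5%, 28.2%, 14.2% and 9.72%, but the order did not hold within each library: members were at 20% against 22.4% of kept-out cells in the 3-month mutant, and at 0% against 20% in the 12-16-month control, from 10 and 4 members. For Dcn the shares were 45.2%, 69.0%, 76.8% and 0%. The median depth before thinning was 8073 UMIs in members and 8672 in immune or endothelial cells.

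Members of the mutant libraries were compared with members of the control libraries, which differ in Nf1, in the number of Cre alleles and in the sex of the cells. A gene was counted when its CPM ratio between the members of a pair of libraries was at least 2-fold and its counting interval left out 1, among genes with at least 50 UMIs in the pair. At 3 months, 109 of 1658 genes were higher (6.57%) and 121 lower (7.3%) in 10 mutant against 44 control members, 13.9% in all. At 12-16 months 28 of 193 were higher (14.5%) and 37 lower (19.2%) in 5 against 4 members, 33.7% in all. Of the 193 genes tested at both ages, 11 were called the same way at both and 9 in opposite ways. TMM scaling gave 59 higher and 202 lower at 3 months and 19 and 65 at 12-16 months. With no minimum the counts were 500 higher and 219 lower, and 215 and 115. The median log2 ratio over all genes tested was -0.02 at 3 months and -0.34 at 12-16 months.

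Immediate early genes are switched on within minutes by growth factors and stress. They were counted in a list together with stress genes, among them the heat shock genes Hspa1a, Hspa1b and Hsp90aa1. Of 24 tested at 3 months, 11 were called lower in mutant members, beside 7.3% of all genes, 1 was called higher, Hspa1b, and the other 12 were not called, with a median log2 ratio of -0.90 beside -0.02 over all genes. At 12-16 months 6 of 20 were called lower (Nr4a1, Egr1, Gadd45b, Ier2, Atf3 and Dusp1), beside 19.2% of all genes. Another 5 were called higher (Hsp90aa1, Gadd45g, Klf2, Hspa1a and Hspa1b), beside 14.5%. The median of -0.42 was near the -0.34 of all genes.

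Egr1, a zinc finger factor downstream of ERK, was at 2384 CPM in the 3-month control, 947.5 in the 3-month mutant, 5440 in the 12-16-month control and 1628 in the 12-16-month mutant. The mutant was lower at each age, with ratios of 0.397 (0.318 to 0.491) and 0.299 (0.210 to 0.417), whereas in the other gated chondrocytes the ratios were 0.919 and 0.757. Ier2 was at 1896, 584.6, 3020 and 1434 CPM, with ratios of 0.308 (0.232 to 0.403) and 0.475 (0.321 to 0.688) against 0.666 and 1.02 in the other gated chondrocytes. Junb, a subunit of AP-1, was at 5194, 2107, 9259 and 5117 CPM, with ratios of 0.406 and 0.553 against 0.811 and 0.751. These genes, like Cebpd, Atf3 and Hspa1b below, were picked for large ratios among members at both ages. Ratios nearer to 1 in the other gated chondrocytes follow in part from that choice, and a difference between the sets of cells was not tested.

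Cebpd, a C/EBP factor induced by cytokines, was at 686.5, 211.7, 1776 and 581.5 CPM, with ratios of 0.308 (0.188 to 0.481) and 0.327 (0.175 to 0.573). In the other gated chondrocytes its ratio was 1.68 at 3 months and 0.789 at 12-16 months. Atf3, one of the genes that name these cells, had mutant to control ratios of 0.340 (0.249 to 0.454) and 0.482 (0.283 to 0.791), against 0.623 and 0.803. Single cells weighed heavily: 1 cell held 32.0% of the Atf3 UMIs of the 3-month mutant and 71.05% of those of the 12-16-month control. Without the richest cell of each library the ratios stayed below 1 at both ages for Egr1 (0.278 and 0.238), Ier2 (0.173 and 0.564), Cebpd (0.197 and 0.396), Atf3 (0.292 and 0.607) and Junb (0.297 and 0.594).

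**Figure D4:**
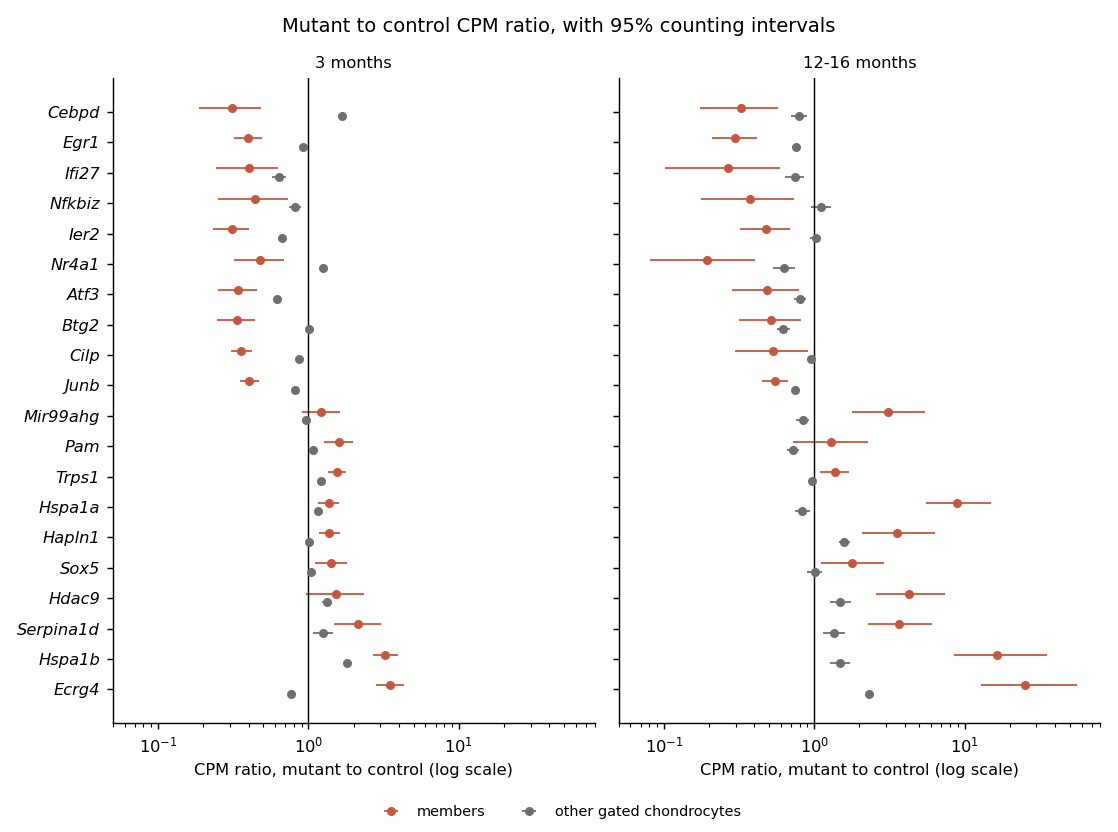
Mutant to control CPM ratio (log scale) at 3 months and at 12-16 months for the genes with the largest ratios in the same direction at both ages, in members and in the other gated chondrocytes, with 95% counting intervals. The members' ratios for Egr1, Ier2, Cebpd, Atf3 and Junb lie below 1 at both ages, and those of the other gated chondrocytes lie nearer to 1. The genes were ranked by the members' ratios, and the nearness of the other cells to 1 follows in part from that choice.

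On the higher side, Hspa1b, an inducible heat shock protein, was at 596.1, 1935, 222 and 3644 CPM in the order used above. Mutant members exceeded control members 3.25-fold (2.67 to 3.94) at the younger age and 16.4-fold (8.54 to 35.3) at the older one, against 1.82 and 1.49 in the other gated chondrocytes. The mutant was higher at each age, in 9 of 10 and in 5 of 5 mutant members with UMIs. Ecrg4 had a ratio of 3.48 at 3 months and a ratio with an interval of 12.8 to 56.0 at 12-16 months, where 1 cell held 98.5% of the mutant UMIs. Serpina1d, one of the near-identical serpin copies, had ratios of 2.13 and 3.69.

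The other lists are to be read beside the 6.57% higher and 7.3% lower of all genes at 3 months and the 14.5% and 19.2% at 12-16 months. At 3 months BMP pathway genes had 1 of 9 higher and 4 lower, at a median log2 ratio of -0.92 beside -0.02 over all genes. Bmp3 was higher in the mutant by a log2 ratio of 1.03, a ratio of 2.01 that became 0.715 without the richest cell of each library, and Id3, Id2, Nog and Id4 were lower, at -1.88, -1.33, -1.17 and -1.09. Cytokine and NF-kB response genes had 0 of 8 higher and 3 lower at 3 months (median -0.69) and 0 of 4 higher and 4 lower at 12-16 months (median -1.56 beside -0.34 over all genes). Cartilage matrix genes had 2 of 17 higher (Col27a1 and Mia) and 1 lower (Cilp) at 3 months, with a median of 0.07. Hhip had a mutant to control ratio of 2.20 (1.52 to 3.14) at 3 months, beside 1.77 in the other gated chondrocytes, with 38.8% of the mutant UMIs in 1 cell, and the ratio was 1.79 without the richest cell of each library. From the RAS brake list, 2 genes reached the minimum at 3 months, 1 of them lower, and 0 at 12-16 months.

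With age, 96 of 1448 genes were higher (6.63%) and 157 lower (10.8%) in members of the 12-16-month control than of the 3-month control, 17.5% in all, and 28 of 345 were higher (8.12%) and 48 lower (13.9%) in the mutant, 22% in all. These comparisons share their libraries with those of mutant and control. Of 343 genes tested in both genotypes, 17 were called the same way and 12 in opposite ways. TMM scaling gave 37 higher and 313 lower in the control and 11 and 120 in the mutant. A minimum of 20 UMIs gave 215 higher and 183 lower in the control and 81 and 89 in the mutant, and no minimum gave 471 and 183, and 259 and 104. The balance of directions thus depended on scaling and on the minimum. The median log2 ratio over all genes was -0.09 in the control and -0.16 in the mutant.

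Slurp1, a secreted Ly6-family protein, was at 2135 CPM in the 3-month control, 1210 in the 3-month mutant, 244.2 in the 12-16-month control and 116.3 in the 12-16-month mutant. Its ratio of older to younger members was 0.114 (0.0569 to 0.206) in the control and 0.0962 (0.0196 to 0.288) in the mutant, against 0.676 and 0.912 in the other gated chondrocytes. Both older libraries were below both younger ones, from 1 control cell and 3 mutant cells with UMIs. Bmp6, a BMP ligand, was at 346.9, 554.4, 22.2 and 77.53 CPM, with 1 and 2 UMIs in the older libraries, giving ratios of 0.0640 (0.00161 to 0.362) and 0.140 (0.0165 to 0.530). Comp had ratios of 0.156 (0.0986 to 0.235) and 0.372 (0.216 to 0.605), against 0.554 and 1.02 in the other gated chondrocytes. Mgp, which encodes the mineralization inhibitor matrix Gla protein, had ratios of 0.259 and 0.00751, the latter resting on 1 cell that held 96.7% of the UMIs of the 3-month mutant. These genes, like Trps1, Serpina1a and Prkg1 below, were picked for large ratios among members in both genotypes. Where the other gated chondrocytes had ratios nearer to 1, this follows in part from that choice.

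Of 16 cartilage matrix genes tested with age in the control, 4 were called lower (Comp, Cilp, Hapln1 and Ucma) and 0 higher, beside 10.8% and 6.63% of all genes, and of 14 in the mutant 6 were called lower (Cnmd, Col11a2, Col2a1, Comp, Col9a2 and Cilp) and 0 higher, beside 13.9% and 8.12%. Called or not, 14 and 12 of them had ratios below 1, beside 783 of 1448 and 212 of 345 over all genes. The median log2 ratios were -0.38 and -0.66, beside -0.09 and -0.16 over all genes. Glycolysis and hypoxia genes had 8 of 18 lower and 0 higher in the control, beside the same 10.8% and 6.63%, at a median of -1.17, led by Pgam1 at -3.07 and Bnip3 at -2.65. In the mutant 2 of 11 were lower (Gapdh and Pfkp), at a median of -0.01, and whether the genotypes differed in this was not tested.

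Trps1, a GATA-type transcriptional repressor of growth plate cartilage, was higher with age, at 2023, 3135, 4174 and 5698 CPM, with ratios of 2.06 (1.75 to 2.42) in the control and 1.82 (1.48 to 2.22) in the mutant. In the other gated chondrocytes its ratios were 1.23 and 0.982. Serpina1a was at 3518, 1582, 13544 and 10428 CPM, with ratios of 3.85 (3.50 to 4.24) and 6.59 (5.39 to 8.08), and it was higher with age in the other gated chondrocytes as well, by 4.26 and 15.9. Prkg1, a cyclic GMP-dependent kinase, had ratios of 2.42 and 2.86, with 74.2% of the UMIs of the 12-16-month control in 1 cell. Immediate early and stress genes had 3 of 24 higher and 5 lower in the control, beside 6.63% and 10.8% of all genes. In the mutant 7 of 18 were higher and 0 lower, beside 8.12% and 13.9%. Their medians of 0.28 and 0.91 became -0.14 and 0.36 with TMM scaling, which turned the direction in the control.

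**Figure D5:**
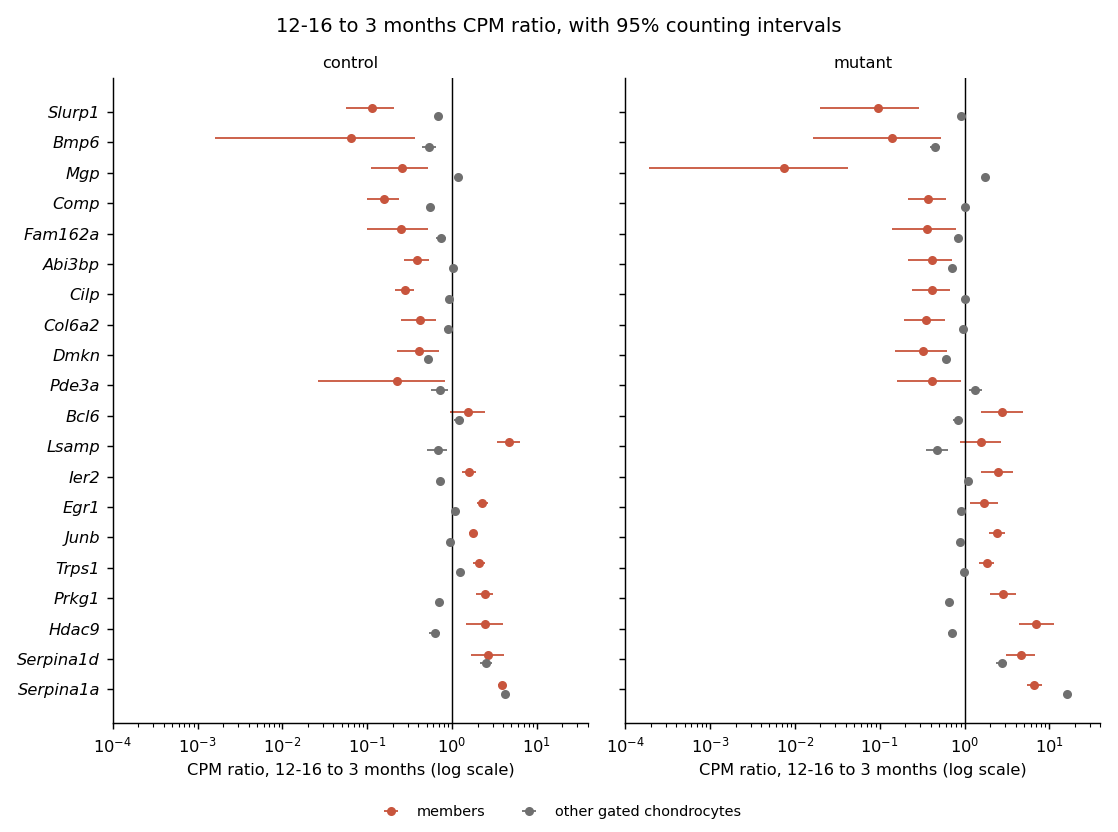
Ratio of 12-16 months to 3 months in CPM (log scale) in the control and in the mutant for the genes with the largest ratios in the same direction in both genotypes, in members and in the other gated chondrocytes, with 95% counting intervals. Slurp1, Bmp6 and Comp lie below 1 and Serpina1a, Hdac9, Prkg1 and Trps1 above 1 in members of both genotypes.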

How the data were processed

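The authors sequenced 10x 3′ libraries of sorted tdTom+ cells and, per the labels, made the deposited gene by cell UMI counts with Cell Ranger 8.0.0 on mm10. The 4 count matrices, ordered as young control, young mutant, old control, old mutant, held 922, 542, 163 and 545 barcodes and 32286 genes. A cell passed with over 750 UMIs, over 500 genes and a mitochondrial share under 7%, which left 717, 484, 135 and 421 cells with 9429264, 7287981, 2154537 and 4398951 UMIs. No clustering was used. Doublets were scored with Scrublet at an expected rate of 6% and kept.

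UMI counts were summed over the cells of a set in each library and divided by the set's total (CPM). Level intervals were exact Poisson, ratio intervals exact conditional binomial and share intervals Clopper-Pearson, all at 95%. A level of 0 was given the limit of 3 counts. Named genes were the marker, rule and list genes, the 15 highest and 10 lowest by smallest log2 ratio over the libraries, and for each pair of libraries 10 each way with 1 direction at both ages or in both genotypes, leaving out mitochondrial, ribosomal, hemoglobin, sex-linked and rule genes. Numpy 2.4.6, scipy 1.17.1, pandas 2.3.3, scanpy 1.11.5, edgeR 4.0.16 (TMM factors) and DESeq2 1.42.0 (median-of-ratios size factors) were used, without count models. The interval and calling code was tested on simulated data. The cells, lists and rules were chosen with earlier results of these data known, and the Hedgehog list and 6 alternatives after seeing these values. Gene positions are from GENCODE vM21 (GRCm38), in which 99.6% of genes were found, and promoters from RefSeq.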

Additional observations from a re-analysis of the deposited data

Results flagged for a closer look

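Dcn and Ccn2, a matricellular growth factor-binding protein, went opposite ways between the ages when mutant members were compared with control members. The log2 ratio of Dcn was -1.59 at 3 months and 1.29 at 12-16 months, and that of Ccn2 was -1.70 and 1.40. At 12-16 months 1 mutant cell held 83.9% of the Dcn UMIs and 65.9% of the Ccn2 UMIs. In the 12-16-month control 16 of the 22 Dcn UMIs lay in 1 cell. Without the richest cell of each library the Dcn ratio of 2.46 at 12-16 months became 1.09, and at 3 months it was 0.284. Dcn in the other gated chondrocytes had ratios of 0.850 and 1.11.

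Ecrg4, Id1 and Hspa1a went opposite ways with age between the genotypes. The log2 ratio of older to younger members was -1.20 in the control and 1.57 in the mutant for Ecrg4, -1.11 and 1.12 for Id1, and -1.65 and 1.02 for Hspa1a, a heat shock protein. For Ecrg4, 1 cell held 98.5% of the UMIs of the 12-16-month mutant, and for Id1, 1 cell held 87.5% of those of the 12-16-month control. Hspa1a was lower with age in the other gated chondrocytes of both genotypes, by ratios of 0.651 and 0.467. Each of these 5 differences between ages or genotypes rests on single libraries and was not tested.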

How the results depend on the processing

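For genotype and age no paired analysis was possible because each condition had 1 library. Members and the other gated chondrocytes were compared within each of the 4 libraries, and that difference was described without a test. The numbers of genes higher and lower in members depended on scaling and on low counts. The 53 higher genes became 19 with TMM factors and 33 with median-of-ratios factors, 422 with a minimum of 20 UMIs and 6528 with no minimum, 29 with the added count in proportion to the totals, and 4 against the kept-out cells. With every cell weighted equally 54 were higher and 33 lower, but 32 of these were among the 53 and 23 among the 30. The 30 lower genes became 76 with TMM factors, 118 with the proportional count, 8 among genes with at least 1 member UMI in every library, and 8 against the kept-out cells. Leaving out 1 library at a time gave 59 to 104 higher and 40 to 48 lower genes, because the rule then asks for fewer libraries while the minimum of 100 UMIs falls on the remaining cells alone. Of the 53 higher genes, 20 stayed without the 3-month control, 35 without the 3-month mutant, 45 without the 12-16-month control and 43 without the 12-16-month mutant, and all 30 lower genes stayed each time. The higher count was 104 without the 3-month control and 89 without the 12-16-month control, and the lower count 47 without the 3-month control and 48 without the 12-16-month mutant. Over mutant against control at 3 and 12-16 months and age in the control and the mutant, the 230, 65, 253 and 76 called genes became 472, 144, 398 and 170 with a minimum of 20 UMIs and 719, 330, 654 and 363 with no minimum. Leaving out genes with most UMIs in 1 cell gave 224, 56, 251 and 69. With TMM factors the age count of the mutant was 131, and the median log2 ratio of all genes became -0.22, -0.66, -0.51 and -0.71. The median of the immediate early and stress genes then moved to -1.09, -0.74, -0.14 and 0.36. Its direction with age in the control was thus not stable. In members against the other cells, TMM factors, which put the median of all genes at -0.20, also turned 9 list medians below 0: Hedgehog -0.17, BMP -0.05, gp130 -0.18, glycolysis and hypoxia -0.14, microfibril -0.21, immediate early -0.37, chondrocyte transcription factors -0.29, cell cycle -0.33 and cytokine -0.39. The shares of members moved by less than their intervals under every alternative tried. Cells led by Chrdl2 could not serve as a comparison set because the 12-16-month mutant had 0. The older libraries, with 4 and 5 members, limit every statement on age and on the older mutant.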
